A study of Mus musculus with 6 samples.

Results

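The genes described here are the glucocorticoid receptor gene Nr3c1, the steroid-activating enzyme gene Hsd11b1, the receptor target genes Tsc22d3, Fkbp5, Sgk1 and Zbtb16, and the metallothionein genes Mt1 and Mt2. They were chosen as the probe sets that the platform annotation maps to one of these 8 genes alone, which gave 15 probe sets among the 22626 tested, or 8 genes among 12393. Transcripts were measured in cultured mouse cells with 6 Affymetrix arrays, each carrying biotin-labelled cRNA from total RNA. 3 arrays came from cells of a line called PPP3R1 that had been starved for 6 h, and 3 came from PPP3R1 cells in normal medium, called control here. PPP3R1 shares its name with the regulatory subunit of the phosphatase calcineurin, but the sources used here state neither what was done to that gene nor the make-up of the starvation medium. The titles and the series design give the PPP3R1 line as the control, whereas the culture protocols give wild-type mouse embryonic fibroblasts, so a difference between lines and an effect of starvation cannot be told apart if the protocols are right. The sources used here do not say whether either medium held glucocorticoid, serum or added metal. The titles number the arrays as biological replicates without saying whether cultures were separate, so p-values measure only the spread between these samples.

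Glucocorticoids enter cells and bind the glucocorticoid receptor, which waits in the cytoplasm in a complex with HSP90 and its co-chaperones, moves to the nucleus and binds DNA. 11beta-hydroxysteroid dehydrogenase type 1, the product of Hsd11b1, turns inactive 11-keto steroids into active glucocorticoids inside the cell. Metallothioneins are small cysteine-rich proteins that bind zinc, copper and cadmium; their genes are switched on by zinc through the metal sensor MTF1 and, in many tissues, by glucocorticoids too.

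Short stretches of reference sequence show the kinds of element these genes are known for: the metal response element core (MRE, TGCACNC or TGCGCNC) near the metallothionein genes and the palindromic glucocorticoid response element (GRE, AGAACA and TGTTCT with 3 bases between them) near Sgk1. They are from RefSeq, build GRCm38.p6, whose table had 13 promoter windows for 6 of the 8 genes, each reaching from 250 bases before a transcript start to 50 after it. Matches, shown in capitals, were searched on both strands; a match is a description of the letters and not a bound site. The first line is the 250 bases before the Mt2 start (chr8:94172368-94172617, plus strand). The second is a stretch at the transcript start of the Mt1 window (chr8:94179088-94179117, plus strand). That start lies inside the Mt1 gene span given below, not at its first base. The third is a stretch before an Sgk1 start (chr10:21993694-21993723, plus strand).
Mt2: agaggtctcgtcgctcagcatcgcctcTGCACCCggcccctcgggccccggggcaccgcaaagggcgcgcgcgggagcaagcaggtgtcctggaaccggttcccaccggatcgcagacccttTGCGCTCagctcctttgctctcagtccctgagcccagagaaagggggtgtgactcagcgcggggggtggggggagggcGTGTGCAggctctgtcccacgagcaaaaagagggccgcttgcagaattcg
Mt1: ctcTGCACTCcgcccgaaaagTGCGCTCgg
Sgk1: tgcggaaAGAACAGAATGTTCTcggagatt

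The MRE core occurred 4 times in the Mt2 window and 3 times in the Mt1 window. It also occurred 1 time in the Hsd11b1 window and 1 time in 1 of the 6 Sgk1 windows. Of all 32851 promoter windows, 25.7% held at least 1. The GRE palindrome began 189 bases before the start in 1 of the 6 Sgk1 windows, and only 3 of all 32851 windows (0.00913%) held it. The shorter GRE core ACANNNTGT, which lies inside the palindrome, was in 6.85% of all windows, among them the Mt1 window and 2 of the 6 Sgk1 windows. No letters of either GRE form were found in the windows of Hsd11b1, Fkbp5, Mt2 or the 3 of Tsc22d3. The gene spans given by RefSeq are chr1:193221640-193264045 for Hsd11b1, chrX:140539528-140600522 for Tsc22d3, chr17:28398753-28486149 for Fkbp5, chr10:21882184-21999903 for Sgk1 and chr9:48651797-48836225 for Zbtb16. Mt2 (chr8:94172618-94173567) and Mt1 (chr8:94178883-94180327) are neighbours with 5315 bases between them.

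The comparison asks how the transcripts of these genes differed between starved and control cells. The 8 genes did not move as a group. Hsd11b1 and Fkbp5 were lower in starved cells, Tsc22d3 was higher, and Nr3c1, Sgk1, Zbtb16, Mt2 and the brightest Mt1 probe set did not pass the test. Levels are the authors' RMA values (log2), a change is the starved mean minus the control mean, and a probe set passed where limma's two-sided test gave a Benjamini-Hochberg adjusted p under 0.05 over all probe sets. By this rule 6 of the 15 probe sets passed (40.0%), against 39.5% of all probe sets. Of the 15, 2 were higher and 4 lower, where 20.3% and 19.2% of all probe sets were. With each gene taken by its brightest probe set, 3 of 8 passed (37.5%), 1 higher and 2 lower, against 40.8% of all genes (20.8% higher and 20.1% lower), and the median change was -0.04 against -0.01 for all genes. These shares are near the background, so the number of calls says nothing particular about this set. Groups that did not overlap were common too. With brightest probe sets they occurred in 5 of the 8 genes and in 6504 of all 12393 genes. The description below therefore rests on single genes.

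**Figure D1:**
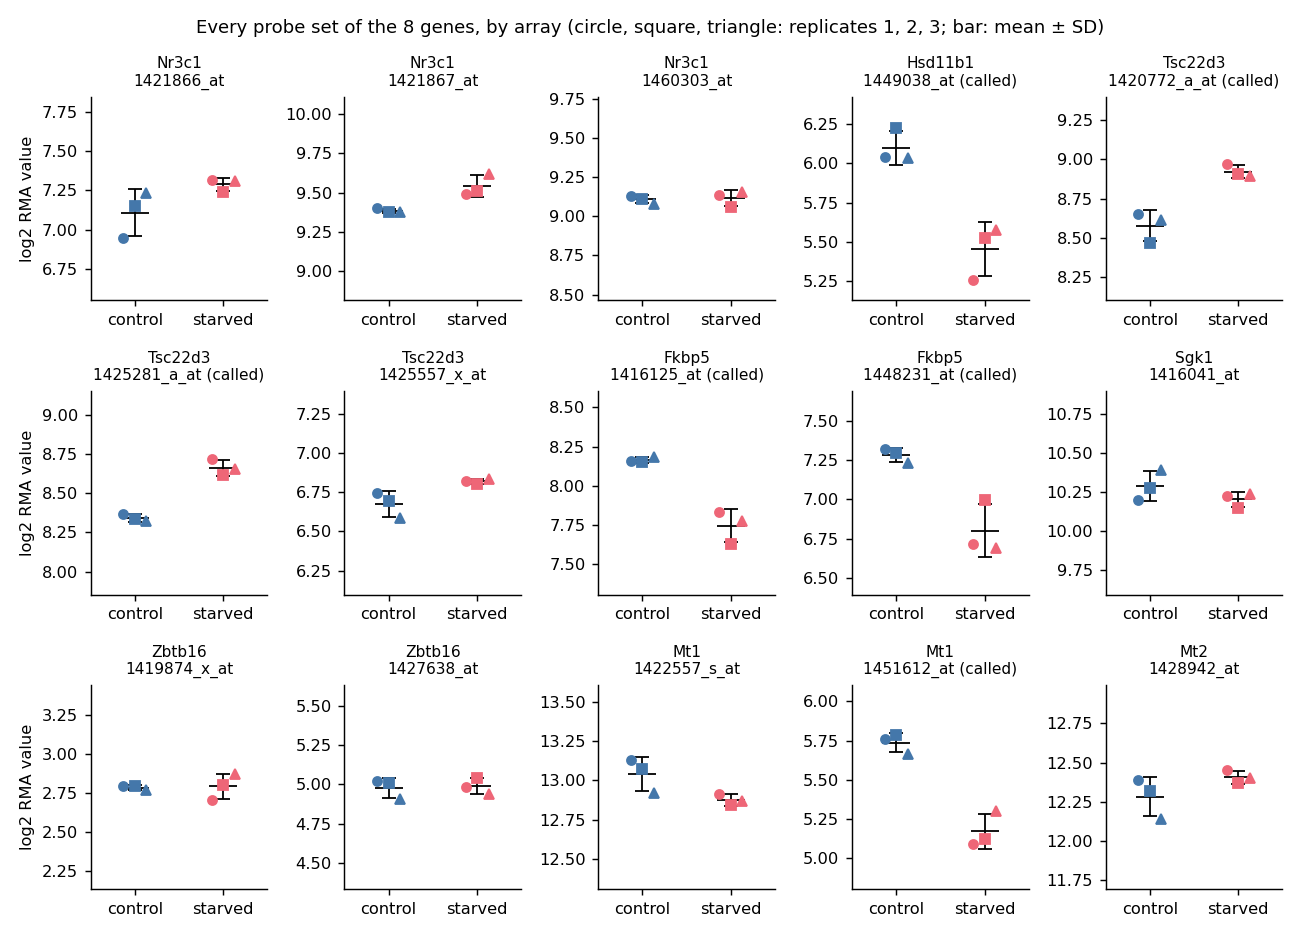
Log2 RMA value of each of the 15 probe sets (panels) in the 3 control and 3 starved arrays; circles, squares and triangles are replicates 1, 2 and 3, and the bars give the mean ± SD. All panels span the same range of log2 units, so distances can be compared between panels: Hsd11b1, Fkbp5 and the dimmer Mt1 probe set are separated widely, while the groups of Sgk1 and Zbtb16 overlap.

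Nr3c1 encodes the receptor itself and had 3 probe sets. In the brightest (1421867_at) the control arrays 1, 2 and 3 were at 9.40, 9.38 and 9.37 and the starved arrays at 9.49, 9.51 and 9.62. All starved arrays lay above all control arrays, but the change of 0.16 ± 0.06 (SE, n = 3 per group) did not pass (limma adjusted p = 0.0666). The other bright probe set (1460303_at) was at 9.11 ± 0.03 (SD, n = 3) in control and 9.12 ± 0.05 in starved cells, with overlapping groups and a 95% interval of the change from -0.12 to 0.14. The dimmest (1421866_at) read 6.94, 7.15 and 7.23 in control and 7.31, 7.24 and 7.31 in starved arrays, a change of 0.18 ± 0.08 (adjusted p = 0.120). The receptor transcript was thus measured with intervals that all lie under 0.37 (log2). The call of the brightest probe set depended on the fit: it passed once dim probe sets were left out (adjusted p = 0.0322) and with an intensity trend and robust moderation (0.0169), over a range of 0.0169 to 0.211.

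Hsd11b1 had the largest change of the 8 genes in the brightest probe sets. Its single probe set (1449038_at) read 6.04, 6.22 and 6.03 in control arrays and 5.25, 5.53 and 5.58 in starved arrays. Every starved array was below every control array, and starved replicate 1 was the lowest. The fall of 0.65 ± 0.10 (SE) was 1.57-fold (limma adjusted p = 0.00123), and 8.96% of all genes had a larger absolute change. In bulk samples such as these, fewer cells of a type and less RNA per cell cannot be told apart. Both levels were low on the scale but above 5, the level taken here as the limit for dim probe sets.

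H6pd encodes hexose-6-phosphate dehydrogenase, which supplies NADPH to the Hsd11b1 enzyme in the endoplasmic reticulum. It read 9.998, 9.845 and 9.946 in control and 8.76, 8.74 and 8.86 in starved arrays, a fall of 1.14 ± 0.07, or 2.21-fold (limma adjusted p = 1.11e-05). Hsd11b2 encodes the opposing enzyme, which inactivates glucocorticoids. It lay near the dim end in both groups (4.44 ± 0.16 and 4.46 ± 0.18, SD, n = 3). The multidrug transporter genes Abcb1a and Abcb1b, whose products export steroids among other substrates, rose by 0.91 ± 0.13 and 0.80 ± 0.08. Of 8 measured genes in a list of glucocorticoid metabolism and transport, these 2 rose, H6pd fell and 5 did not pass (37.5% called, against 40.8% of all genes). Srd5a3 (0.16 ± 0.06, adjusted p = 0.0678) and Akr1c18 (0.16 ± 0.16, adjusted p = 0.469) were among those that did not.

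By the likeness rule, the 3 genes whose levels followed Hsd11b1 most closely over the 6 arrays were Ppt2 (Pearson r = 0.998), Eef1a2 (r = 0.993) and Gdpd5 (r = 0.987), out of 8644 genes with a mean of at least 5. Ppt2, which encodes a lysosomal thioesterase, read 8.65, 8.75 and 8.67 in control and 8.36, 8.46 and 8.47 in starved arrays. In both genes control replicate 2 was the highest and starved replicate 1 the lowest array. The arrays form only 2 groups that both genes separate, so these correlations are descriptions.

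Tsc22d3 encodes GILZ, a leucine zipper protein induced by glucocorticoids that inhibits NF-kappaB and AP-1. Its brightest probe set (1420772_a_at) read 8.65, 8.47 and 8.61 in control and 8.97, 8.91 and 8.89 in starved arrays. The groups were apart, and the rise of 0.34 ± 0.07 was 1.27-fold (limma adjusted p = 0.00404). A second probe set (1425281_a_at) gave 8.37, 8.34 and 8.32 against 8.72, 8.61 and 8.66, a rise of 0.32 ± 0.05 (adjusted p = 0.00233). The third (1425557_x_at) was also higher in all starved arrays but by 0.14 ± 0.06, which did not pass (adjusted p = 0.0982); its suffix marks probes that can match several transcripts. Its brighter pair of probe sets kept the call in every alternative fit, with adjusted p up to 0.0199 and 0.0102.

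The paralogue Tsc22d1, which encodes a TGF-beta-induced relative of GILZ, went the other way. It read 13.35, 13.27 and 13.26 in control and 13.04, 12.96 and 12.99 in starved arrays, a fall of 0.30 ± 0.06 (limma adjusted p = 0.00368). Of its 5 other probe sets, the 3 brighter than 5 fell as well, by 0.36 to 0.47. Of the pair under 5, one rose by 0.30 ± 0.08 (4.66 and 4.96 in control and starved cells) and the dimmer fell by 0.23 ± 0.06 (2.97 and 2.74). Tsc22d4 was at 8.83 ± 0.10 and 8.86 ± 0.01 (SD, n = 3), with overlapping groups.

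Fkbp5 encodes FKBP51, an HSP90 co-chaperone that lowers the affinity of the receptor for hormone and is itself a sensitive target of glucocorticoids. In its brighter probe set (1416125_at) the control arrays lay at 8.16, 8.15 and 8.19 and the starved arrays at 7.83, 7.63 and 7.77. The fall of 0.42 ± 0.07 was 1.34-fold (limma adjusted p = 0.00151). The other probe set (1448231_at) read 7.32, 7.30 and 7.23 in control and 6.713, 6.999 and 6.693 in starved arrays, a fall of 0.48 ± 0.09 (adjusted p = 0.00321). Both sets separated the groups, although they disagreed on which starved array was lowest.

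Fkbp4 encodes FKBP52, the co-chaperone that replaces FKBP51 when hormone binds. It fell too, from 9.49, 9.54 and 9.49 in control to 9.18, 9.13 and 9.20 in starved arrays (-0.34 ± 0.05, limma adjusted p = 0.00152). Its dimmer probe set differed by 0.15 ± 0.08 in the other direction without passing (adjusted p = 0.219), and the mean of both did not pass (-0.10, adjusted p = 0.216, range over the alternatives 1.22e-05 to 0.216).

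Sgk1 encodes a kinase that regulates sodium transport and survival, and is induced by glucocorticoids and by serum. Its probe set (1416041_at) read 10.20, 10.28 and 10.39 in control and 10.22, 10.15 and 10.23 in starved arrays. The groups overlapped, and the change of -0.09 ± 0.07 did not pass (limma adjusted p = 0.361), with a 95% interval from -0.24 to 0.07. The probe set is assigned to the gene as a whole, and which of the 6 starts its transcripts use was not tested. Its paralogues Sgk2 (4.61 and 4.52 in control and starved cells) and Sgk3 (4.38 and 4.32) were near the dim end and did not pass.

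Zbtb16 encodes PLZF, a zinc finger repressor that glucocorticoids and progesterone induce strongly in many cells. Its brighter probe set (1427638_at) read 5.022, 5.007 and 4.905 in control and 4.98, 5.04 and 4.94 in starved arrays. The second (1419874_x_at) was at 2.79 ± 0.01 and 2.79 ± 0.08 (SD, n = 3). Both lay under 5 in both group means, and the changes (0.01 ± 0.06 in each; limma adjusted p = 0.923 and 0.944) were without a stable sign.

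**Figure D2:**
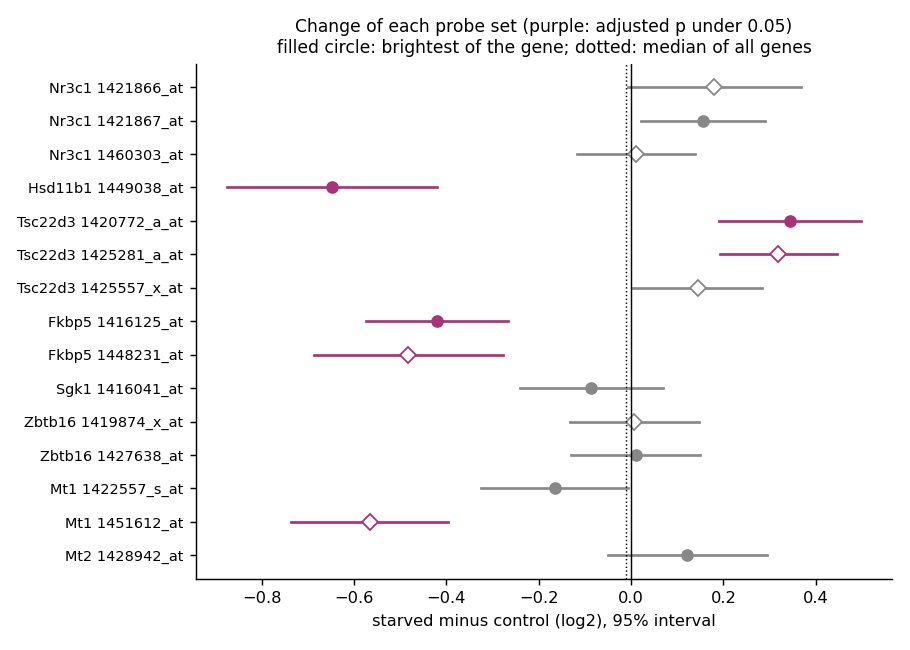
Log2 change of each probe set between control and starved arrays, positive where starved arrays were higher, with its 95% interval from limma (n = 3 per group); purple sets had an adjusted p under 0.05, filled circles are the brightest set of each gene and the dotted line is the median change of all genes (-0.01). Tsc22d3 is the only gene with called rises (2 of its 3 probe sets), and the called falls belong to Hsd11b1, Fkbp5 and the dimmer Mt1 probe set.

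Mt1 and Mt2 encode the metallothioneins found in most cell types. The bright Mt1 probe set (1422557_s_at) read 13.13, 13.07 and 12.92 in control and 12.91, 12.84 and 12.87 in starved arrays. The lowest control array (replicate 3) and the highest starved array (replicate 1) nearly met, and the change of -0.17 ± 0.07 did not pass (limma adjusted p = 0.0947). Leaving out control replicate 3 made it pass (-0.23, adjusted p = 0.0259), as did an intensity trend and robust moderation (0.00622), within a range of 0.00622 to 0.255. The dimmer Mt1 probe set (1451612_at) read 5.762, 5.785 and 5.666 in control and 5.09, 5.13 and 5.30 in starved arrays. That fall of 0.57 ± 0.07, or 1.48-fold (adjusted p = 0.000544), was larger than that of the bright set. The probe sets of Mt1 thus share a sign but not a size, and the mean of both fell by 0.37 (adjusted p = 0.00171). The suffix of the bright set marks probes shared by several transcripts, and whether it also reads Mt2 was not tested.

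Mt2 (1428942_at) read 12.39, 12.32 and 12.14 in control and 12.45, 12.37 and 12.40 in starved arrays. The groups overlapped and the change of 0.12 ± 0.07 did not pass (limma adjusted p = 0.243); without control replicate 3 it was 0.05. Control replicate 3 was the lowest control array for Mt1 and Mt2 alike, 0.12 and 0.14 below its group mean, and it also stood apart from the other control arrays on the second principal component of all probe sets (-14.6 against 8.78 and 5.16). Within each group the arrays ranked alike in both genes, with replicate 1 of each group the highest.

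Within each group the readings of both genes shifted together from array to array, and the difference between them was steadier than either level. Why they shifted together was not tested. This contrast was chosen after its values were seen. Mt2 minus Mt1 in the bright probe sets was -0.74, -0.75 and -0.78 in control arrays and -0.46, -0.47 and -0.47 in starved arrays. The shift of 0.29 compares with SDs of 0.02 in control and 0.01 in starved arrays (n = 3 each). A two-sided exact permutation test gave p = 0.10, the smallest that 3 against 3 arrays allow. Any contrast whose groups do not overlap gives this value. The contrast was chosen after its values were seen, so the p-value lends the shift no support. The shift describes the difference between both readings only, and neither reading passed on its own. A second quantile normalization lowered it to 0.26.

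**Figure D3:**
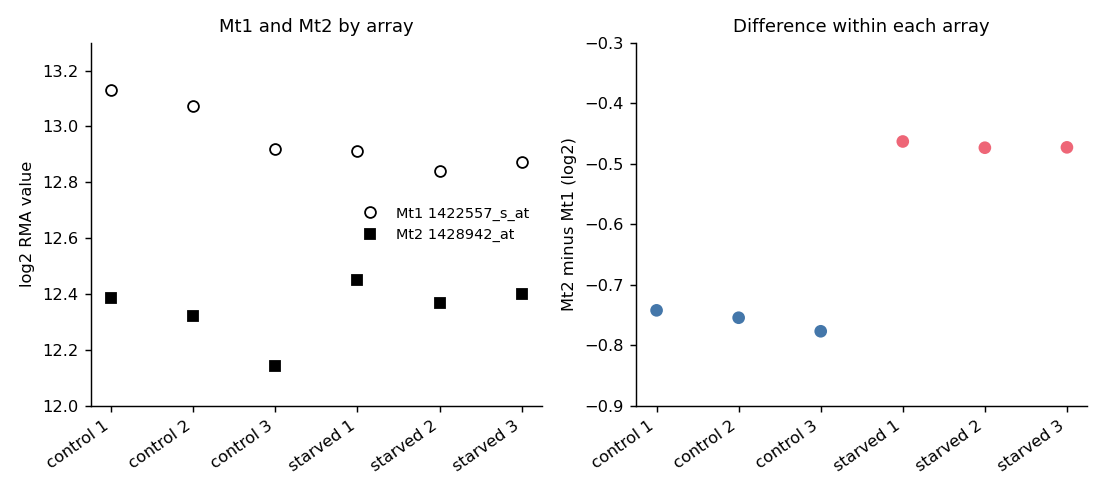
Left, log2 RMA values of the bright Mt1 (open circles) and Mt2 (filled squares) probe sets in the 6 arrays, with control replicate 3 lowest among the controls in both; right, Mt2 minus Mt1 within each array. The 3 control differences (blue) lie between -0.78 and -0.74 and the 3 starved ones (red) between -0.47 and -0.46; levels of different probe sets cannot be compared as amounts of RNA, only the shift between groups can be read.

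The relatives Mt3 and Mt4, known from brain and from squamous epithelium, did not pass. Mt3 was at 5.75 ± 0.21 and 5.51 ± 0.16 (SD, n = 3) and Mt4 at 3.17 ± 0.07 and 3.10 ± 0.04. In all, 2 of 9 measured paralogues of the 8 genes fell (Fkbp4 and Tsc22d1) and 7 did not pass, which included Hsd11b2 and the progesterone receptor gene Pgr, at 3.15 and 3.08. The share called was 22.2%, against 40.8% of all genes, and 1 paralogue fell with the mean of a gene's probe sets, which lost Fkbp4.

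The metal sensor gene Mtf1 had means of 7.15 ± 0.14 and 7.02 ± 0.11 (SD, n = 3) in control and starved cells, and its change of -0.13 ± 0.09 missed the threshold (limma adjusted p = 0.304). Slc30a1, the zinc exporter gene that MTF1 induces along with the metallothioneins, was at 5.53 ± 0.25 and 5.57 ± 0.14 and did not pass. Both were singled out after their values were seen. Of 28 measured genes in the list of metal sensing and zinc and copper handling, 14 fell and 2 rose, where 20.1% of all genes fell and 20.8% rose, and the list's median change was -0.19. The plasma membrane zinc and metal importer genes Slc39a8 (-0.56 ± 0.07) and Slc39a14 (-0.55 ± 0.09) and the secretory pathway zinc transporter gene Slc30a5 (-0.55 ± 0.07) had the largest falls. The dimmer probe sets of Slc39a8 (-0.28 ± 0.14) and Slc39a14 (-0.14 ± 0.06) did not pass. Among Slc39 importers 6 of 9 fell and 1 rose, and among Slc30 exporters 4 of 8 fell and the other 4 did not pass.

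Of 8 copper genes 4 fell and 1 rose (62.5% called, against 40.8% of all genes). The copper chaperone gene Atox1 was among the falls (-0.36 ± 0.05). The late endosomal copper transporter gene Slc31a2 rose by 0.61 ± 0.06, and superoxide dismutase Sod1 (12.02 and 12.09) did not pass. The other rise, of the zinc importer gene Slc39a3 (0.21 ± 0.06, limma adjusted p = 0.0341), was lost with the mean of its probe sets (0.0773) and without any array but control replicate 3 (0.0520 to 0.109). The count of falls in the metal list was 9 at a threshold of 0.01.

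**Figure D4:**
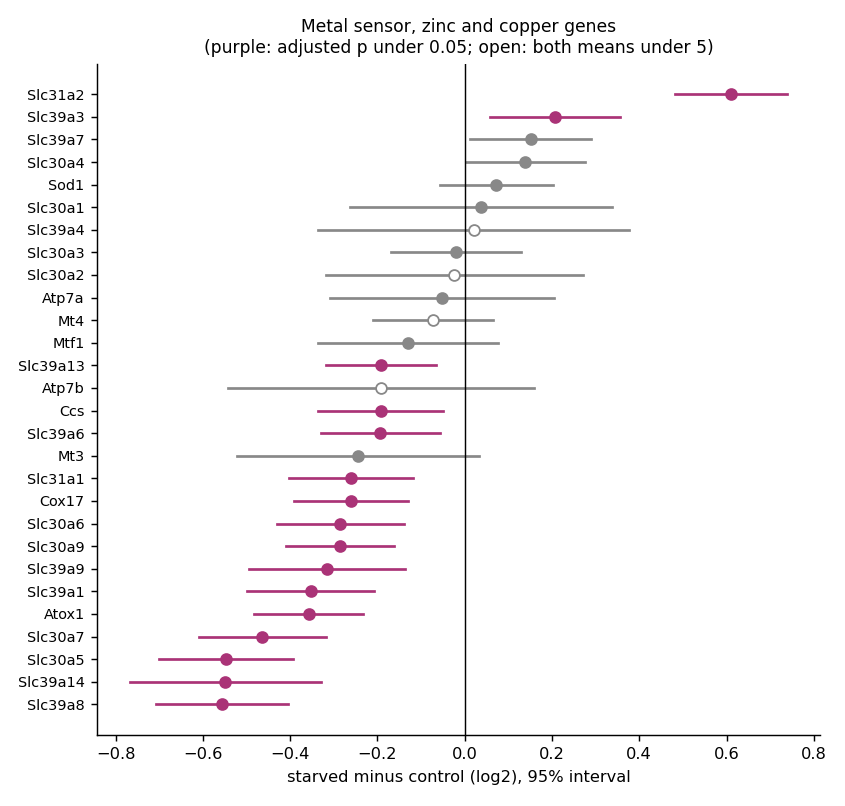
Change of each of the 28 measured genes of metal sensing, zinc and copper handling, starved minus control (log2) with 95% intervals from limma, n = 3 per group; purple genes had an adjusted p under 0.05 and open symbols mark genes with both group means under 5. 14 genes lie to the left as called falls, and Slc31a2 and Slc39a3 are the called rises.

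Genes known to be induced by glucocorticoids, other than the 8 genes above, were changed in both directions: of 38 measured 17 fell and 7 rose, with a median change of -0.08. Over all genes 20.1% fell and 20.8% rose. The largest falls were in Agt, the angiotensinogen gene (-1.88 ± 0.075), the lipocalin gene Lcn2 (-1.65 ± 0.09), the EGF receptor feedback inhibitor gene Errfi1 (-1.61 ± 0.06) and the transcription factor gene Cebpd (-1.49 ± 0.05). Smaller falls, named after their values were seen, included these: the MAP kinase phosphatase gene Dusp1 fell by 0.83 ± 0.05, the clock gene Per1 by 0.29 ± 0.06 and the Kruppel-like factor gene Klf9 by 0.19 ± 0.06. The call of Klf9 was lost with the replicate block (adjusted p = 0.0769) and on leaving out control replicate 2 (0.0810), control replicate 3 (0.0815), starved replicate 2 (0.0945) or starved replicate 3 (0.0992), while 4 of its 6 other probe sets passed as falls. The anti-inflammatory annexin gene Anxa1 rose by 0.32 ± 0.05, and Nfkbia differed by 0.08 ± 0.06 without passing.

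The largest rises in this list were named after their values were seen. Cdkn1a, which encodes an inhibitor of the cell cycle, rose by 1.08 ± 0.05. Fbxo32, whose product is a muscle atrophy ubiquitin ligase, rose by 1.02 ± 0.07. The stress gene Gadd45g rose by 0.99 ± 0.06, the lipase gene Pnpla2 by 0.82 ± 0.07 and the pyruvate dehydrogenase kinase gene Pdk4 by 0.71 ± 0.06. Many genes of this list, rising and falling, answer to serum or growth factors as well, and the part of those signals in the values was not tested.

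Genes that the receptor is known to repress showed no common direction: 6 of 20 rose and 6 fell, with a median of 0.03, where 20.8% of all genes rose and 20.1% fell. The matrix metalloproteinase genes Mmp3 (-3.47 ± 0.06) and Mmp13 (-2.58 ± 0.08) and the chemokine gene Cxcl5 (-1.77 ± 0.09) fell, while the interferon-induced chemokine gene Cxcl10 rose by 2.77 ± 0.20. Cxcl1 fell by 0.43 ± 0.05, and the interleukin 6 gene Il6, named here after its value was seen, rose by 0.76 ± 0.10. Named likewise, Icam1 rose but lay under 5 in both groups (3.99 in control, 4.63 in starved cells). The rising genes Lif (4.89) and Ccl20 (4.90) were under 5 in control cells. The other rises and all falls were above 5 in both groups. Ccl7 passed narrowly (0.19 ± 0.06, limma adjusted p = 0.0488). The call of Vcam1 (-0.23 ± 0.07) was lost with the replicate block (0.0827), with the mean of its probe sets (0.0699) and with no moderation (0.0914). It was also lost without any array but starved replicate 3. The next brightest Vcam1 probe set passed as a fall (-0.20 ± 0.06), and the dimmest was at 0.02 ± 0.07 without passing (limma adjusted p = 0.885).

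The chaperones that hold the receptor ready to bind hormone had no common direction: 4 of 11 rose and 2 fell, with a median of -0.02, where 20.8% of all genes rose and 20.1% fell. Over the alternative fits the rises numbered 2 to 5 and the falls 1 to 5. Rises numbered 2 without control replicate 1 or 2 or starved replicate 1 or 2, and falls numbered 1 without each array in turn, except starved replicate 1 (2). The HSP40 gene Dnajb1 rose by 0.58 ± 0.06, though its dimmer probe set differed by -0.12 ± 0.06 without passing. Bag1, whose product binds HSP70 and the receptor, rose by 0.27 ± 0.05, and Hsp90aa1, which encodes inducible HSP90, by 0.21 ± 0.06. The call of Hsp90aa1 was lost with the replicate block (adjusted p = 0.0644) and without control replicate 1 or 2 or starved replicate 1 or 2 (0.0799, 0.0558, 0.0780 and 0.0535). The dimmer Hsp90aa1 probe sets differed by 0.18 ± 0.06 and 0.16 ± 0.06 without passing (limma adjusted p = 0.0554 and 0.0595). Hspa8 (-0.02 ± 0.05) and the ubiquitin ligase gene Stub1 (0.13 ± 0.06, adjusted p = 0.104) did not pass.

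Among coregulators and nuclear transport factors 4 of 11 rose and 1 fell, with a median of 0.12 (45.5% called, against 40.8% of all genes). The coactivator gene Crebbp fell by 0.64 ± 0.11. The importin genes Kpna2 (0.42 ± 0.06) and Kpnb1 (0.33 ± 0.05) and Tsg101 (0.54 ± 0.07) rose. Med1 rose by 0.17 ± 0.06 at an adjusted p of 0.0479, a call lost with the replicate block (0.0999), with either rescaling of the arrays (0.0551 and 0.0607) and on leaving out any array but control replicate 3 (0.0837 to 0.142). Of its 5 other probe sets, all dimmer, 3 rose, by 0.35 ± 0.09, 0.42 ± 0.14 and 1.40 ± 0.06, and those at 0.04 ± 0.08 and 0.06 ± 0.07 did not pass.

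**Figure D5:**
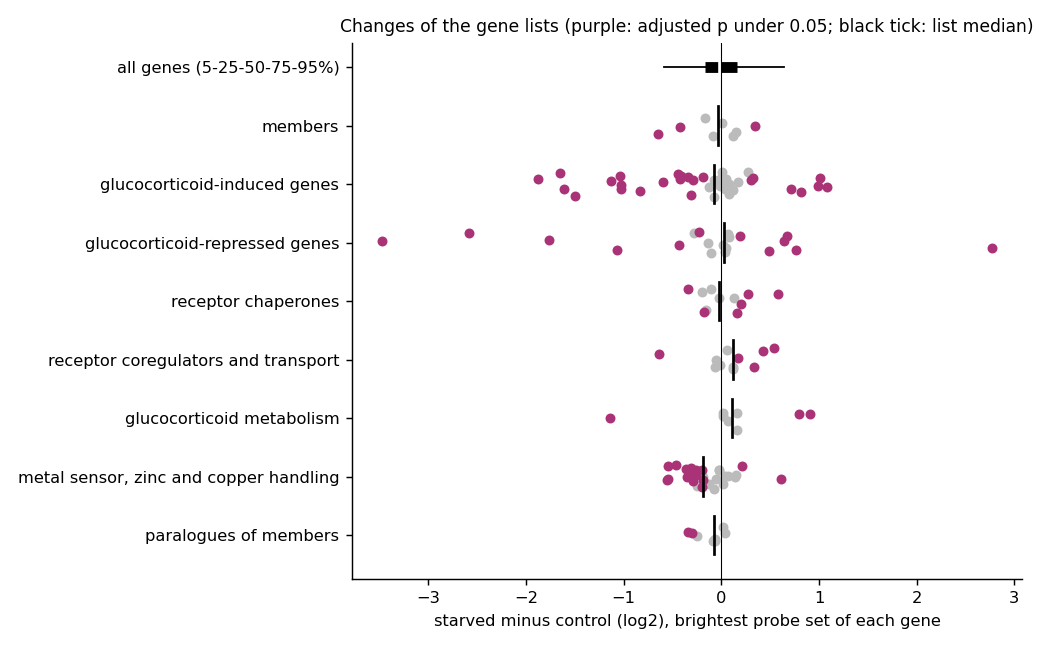
Change of every measured gene in each list, starved minus control (log2), by its brightest probe set; purple points had an adjusted p under 0.05, black ticks are list medians and the bar at the top gives the 5th, 25th, 50th, 75th and 95th percentiles of all 12393 genes. The glucocorticoid-induced list has 17 called falls and 7 called rises, the repressed list 6 of each, and the metal list 14 falls and 2 rises.

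The arrays of a group correlated at 0.998 across probe sets and those of different groups at 0.986 to 0.988. Of 12 fibroblast markers, 11 were above 5 in at least 1 group, with Col1a2 at 14.02 and 14.16, and the remaining one, Thy1, was at 4.80 and 4.87. Of these markers 3 rose, among them Col1a1 (0.57), and 4 fell, among them Lum (-2.05) and Pdgfrb (-0.81). The share called was 58.3%, against 40.8% of all genes. Markers of other cell types were mostly dim: 5 of 5 endothelial markers, 4 of 6 epithelial and 4 of 6 leukocyte markers lay under 5 in both groups. Of 4 adipocyte markers 3 lay under 5, and Fabp4, which is expressed in other cells too, fell by 1.40 ± 0.08. Of the marker genes of these 4 types Cdh1 (0.50), Cd68 (0.43) and Pecam1 (0.24) rose, and the part of all these markers in the results was not tested.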

How the data were processed

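The authors deposited log2 values for each array and probe set, computed with affy and RMA (background correction, quantile normalization and a summary of the probes of a set), per the submitters' processing notes, which state no versions. Of 22690 probe sets, 64 control sets were left out, and the platform annotation named 20380 by 1 gene. The titles gave the groups. limma 3.58.1 (lmFit, eBayes; R 4.3.3) compared starved with control arrays, two-sided, with Benjamini-Hochberg adjustment across the 22626 probe sets and a threshold of 0.05. In lists a gene is its brightest probe set. The 8 genes and the 7 pathway lists were chosen with earlier results of these data known. Beyond the 8 genes, the rule named up to 4 called genes with the largest change and 2 others of the highest level from each list, all measured paralogues, and the 3 genes most like the member with the largest change. Detection calls were not used here, and 5 (log2) served as the limit for dim probe sets. Precision is limited by the number of arrays. Quantile normalization hides a shift common to most transcripts. The fit was tested on simulated data with independent noise and far fewer changed probe sets than were called here. That test therefore does not show how the fit performs on data like these. Figures were drawn with matplotlib 3.10.9.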

Additional observations from a re-analysis of the deposited data

How the results depend on the processing

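Refits left out dim probe sets or those with suffixes for shared probes, rescaled the arrays (second quantile normalization, median centring), changed the moderation (intensity trend, none) or weights, averaged a gene's probe sets, changed the adjustment or threshold, added the replicate block and left out each array. The 6 called probe sets of the 8 genes kept their calls and directions in every such fit that held them. The genes called higher rose from 1 to 2 without dim probe sets and with the intensity trend (Nr3c1 joined Tsc22d3). The genes called lower rose from 2 to 3, as Mt1 passed, with the intensity trend, with the mean of probe sets and without control replicate 3. The same held without sets with suffixes for shared probes, where the dimmer Mt1 set stood for the gene. Rises in the metal list numbered 4 with the intensity trend and 1 with no moderation, with the mean of probe sets and at a threshold of 0.01, where falls numbered 9; without single arrays the rises were 1 to 2. Mt2 minus Mt1 shifted by 0.259 with a second quantile normalization; this contrast and its alternatives were chosen after seeing the data. Replicate numbers did not pair the arrays (correlations of same-numbered deviations -0.0944, 0.0148 and -0.00833); with the replicate block 2 and 4 of the 15 probe sets were higher and lower, as without it, and over the 7 pathway lists 21 genes were higher and 38 lower, against 25 and 42 without it; Mt3 passed with it (adjusted p = 0.0499).

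Changes near 0 turned sign without being called. The Nr3c1 set 1460303_at was at -0.0245 with a second quantile normalization, -0.009 with median centring and -0.0099 to 0.0387 without single arrays. Zbtb16 1419874_x_at gave -0.0119 with centring and -0.0315 to 0.0503 without single arrays, and 1427638_at gave -0.0092 with centring, -0.0015 with array weights and -0.027 to 0.033 without single arrays. Hsd11b2 gave -0.0018 with centring, Hspa8 0.0153 with a second quantile normalization and Sod1 -0.109 with the mean of its probe sets. Without single arrays, ranges were -0.0856 to 0.1075 for Hsd11b2, -0.183 to 0.0261 for Sgk2, -0.0666 to 0.177 for Slc30a1, -0.0559 to 0.2075 for Thy1 and -0.0107 to 0.0846 for Tsc22d4. The cause of these shifts was not tested. Detection calls were not used here, so how far levels under 5 stand above background was not tested.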
